A study of Mus musculus with 30 samples.

Results

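The 9 genes described here are core identity genes of mouse embryonic stem cells (mESCs): Pou5f1, Sox2, Sall4, Lin28a, Utf1, Dppa2, Dppa4, Dppa5a and Fgf4. They were chosen by name, and their Ensembl identifiers were looked up in GENCODE M21, which gave 9 of the 55421 genes of the count table. All 9 passed the filter on low values, a mean over 5 TPM, a read density scaled for transcript length and library size, in XX Rnf12+/- cells, together with 11703 genes in all. The lowest count of any of them in any library was 220, for Dppa2.

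Pluripotent cells are held in their state by a small circuit of transcription factors. Pou5f1 (Oct4) and Sox2 bind DNA side by side and switch on each other, themselves and many targets, Sall4 is a zinc finger factor that recruits the NuRD deacetylase complex, and Utf1 is a chromatin-bound protein known as a target of Oct4 and Sox2. Fgf4, another such target, encodes a secreted growth factor that acts through Fgf receptors and the ERK kinases and moves mESCs towards differentiation. Lin28a binds RNA and blocks the maturation of let-7 microRNAs, Dppa2 and Dppa4 are partner proteins with a SAP domain that prime the promoters of early developmental genes, and Dppa5a encodes a small protein with a KH domain that is abundant in undifferentiated cells.

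Bulk RNA-seq covered 30 libraries of female mESCs from a cross of 129/Sv (Mus) with Cast/Ei (Cast), which thus hold 1 genome of each. Duplicate libraries (2 each) covered XX wild type cells, XX Rnf12+/- cells, in which 1 copy of the X-linked gene Rnf12 (Rlim) is deleted on the Mus allele, and the XO lines XCastOMus and XMusOCast, which kept only the Cast or only the Mus X chromosome. The 13 deletion lines (A, B, AB, C, C-G, D, E, F, H, I, I-TEL, J and K) each lack a stretch of the Mus X chromosome on the background of the Rnf12 deletion and keep a neomycin cassette, with 1 clone for each of A, B, AB and C-G and 2 clones for each of the rest. I-TEL and J were made from another Rnf12+/- founder line than the other 11. The XO cells arose as cells that lost a whole X chromosome during targeting, and XMusOCast keeps the X chromosome that carries the Rnf12 deletion. All cells grew in serum and LIF on feeder fibroblasts, which were depleted before harvest. No age or treatment applies.

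The library names fall into 3 series, called here the first (6 libraries, of deletion E and both XX parental lines), the second (20 libraries of the other 12 deletion lines) and the XO series (4 libraries). They held 20375194 to 21181405, 8816184 to 10680026 and 14998265 to 16494893 counts per library. The first and the second series were read as paired reads and the XO series as single reads on another sequencer. The XO series, its sequencer and its read type therefore cannot be told apart from X loss, and the second series cannot be told apart from what its 12 lines share against the parental cells. Where the labels do not say that 2 libraries came from separate cultures, p-values measure only the spread between these libraries. The targeted gene Rlim was read at 193 and 211 TPM in XX wild type and 77.6 and 79.7 TPM in XX Rnf12+/-. It held 71.2 and 77.8 TPM in XCastOMus and 3.53 TPM in both XMusOCast libraries. The deletion lines held 50.4 to 143.8 TPM, with the highest levels in line C (143.8 and 106.8 TPM) and deletion E (99.4 and 115.5 TPM). All 9 genes are autosomal, so that no deletion and no loss of an X chromosome removes a copy of any of them.

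The upstream sequences of Utf1 and Fgf4 are shown because both genes were lower in deletion lines I-TEL and J. In line C, Utf1 was lower and Fgf4 was higher. That of Sox2 is shown because its level fell into 3 ranges by library series. RefSeq (GRCm38.p6) gave promoters for 5 of the 9 genes, 6 start sites in all. The 250 bases before the start site are printed 5′ to 3′ on the strand of the gene, which is the plus strand for all 3, at chr7:139943606-139943855 for Utf1, chr7:144861136-144861385 for Fgf4 and chr3:34649745-34649994 for Sox2. Capitals mark the GC box GGGCGG and the Sox motif ACAAAG on either strand.
Utf1: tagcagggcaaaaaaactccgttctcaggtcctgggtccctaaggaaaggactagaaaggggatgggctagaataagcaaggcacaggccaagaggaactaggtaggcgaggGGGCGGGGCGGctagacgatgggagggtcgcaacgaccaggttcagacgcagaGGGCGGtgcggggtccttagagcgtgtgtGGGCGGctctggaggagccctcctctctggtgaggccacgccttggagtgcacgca
Fgf4: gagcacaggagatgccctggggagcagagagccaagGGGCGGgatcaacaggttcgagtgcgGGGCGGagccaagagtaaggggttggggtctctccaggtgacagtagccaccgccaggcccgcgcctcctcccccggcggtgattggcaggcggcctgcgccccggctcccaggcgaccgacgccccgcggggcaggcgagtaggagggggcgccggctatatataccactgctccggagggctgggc
Sox2: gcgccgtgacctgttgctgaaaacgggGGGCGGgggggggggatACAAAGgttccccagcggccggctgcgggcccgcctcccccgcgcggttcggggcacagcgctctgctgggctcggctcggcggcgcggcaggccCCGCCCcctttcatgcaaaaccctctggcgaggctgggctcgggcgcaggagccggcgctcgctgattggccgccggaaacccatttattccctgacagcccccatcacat

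Utf1 held 4 GC boxes, of which the first 2 overlap by 1 base, Fgf4 held 2, and Sox2 held 2, 1 of them on the minus strand. A GC box was found in 4 of the 6 promoters of these genes and in 32.74% of the 32851 promoters of the same length. Of the Sox motifs, ACAAAG was found in 1 of the 6 promoters (Sox2) and in 16.46% of all, and ACAATG in 2 of the 6 (1 of the Pou5f1 start sites, and Lin28a) and in 10.69% of all. The octamer ATGCAAAT was in 0 of the 6 and in 1.6% of all promoters. The windows of Sox2 and Fgf4 were rich in G and C, 72.0% and 71.2%, against 61.6% for Utf1 and a median of 52.4% over all promoters.

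Per transcript length, the 9 genes spanned a wide range of levels, in nearly the same order everywhere. Dppa5a had the highest level in all 30 libraries, with a median of 5523 TPM, followed by Pou5f1 (1902 TPM), Utf1 (1423 TPM), Sox2 (574 TPM), Lin28a (326 TPM), Sall4 (223 TPM), Fgf4 (209.7 TPM), Dppa4 (203 TPM) and Dppa2 (59.1 TPM). Pou5f1 exceeded Utf1 in 28 of 30 libraries and Sox2 exceeded Lin28a in 26. Sall4 and Fgf4 were not ordered, as Sall4 was higher in 15 of 30 libraries, and Fgf4 exceeded Dppa4 in 17. Each of the 9 genes was thus well expressed in every line, those without a piece of the X chromosome or without the whole of it included.

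**Figure D1:**
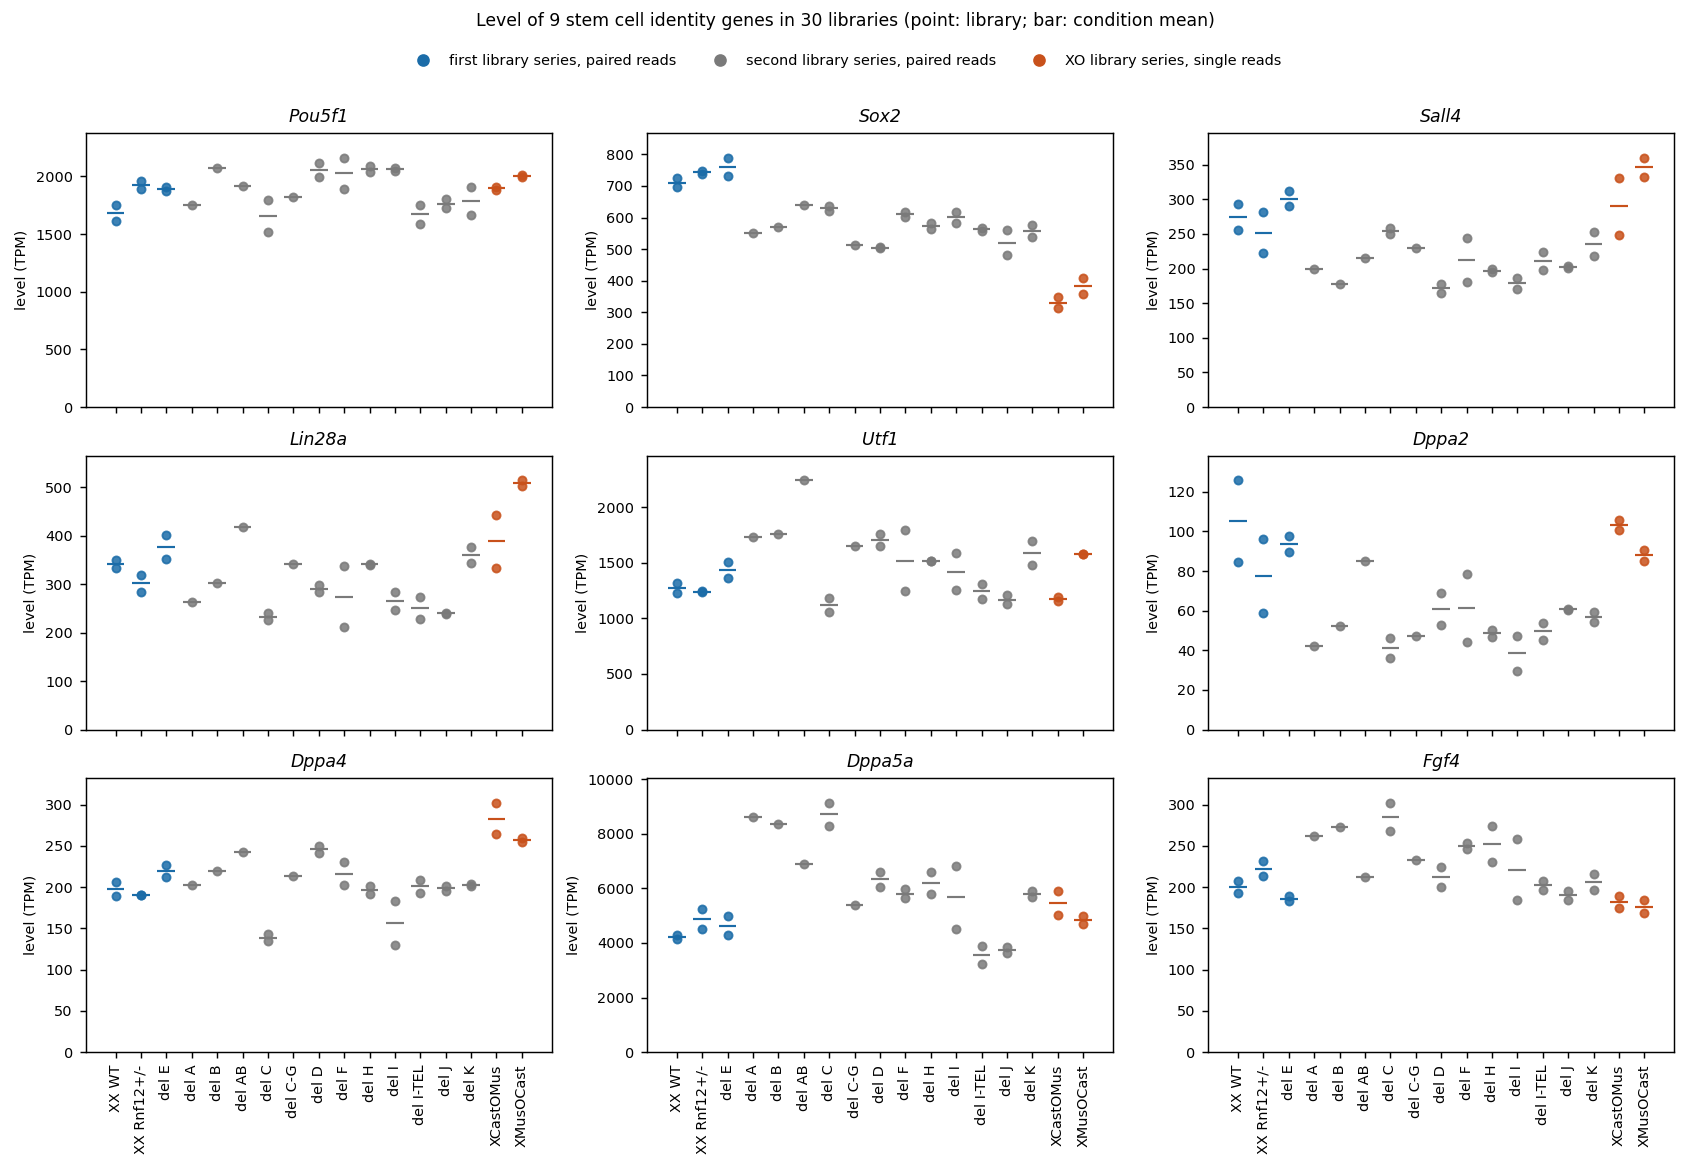
Level in TPM (linear axes from 0) of each of the 9 genes in each of the 30 libraries, by line, with the mean of a line as a bar and the library series by colour. Sox2 forms 3 levels that follow the library series, and Dppa5a is lowest in lines I-TEL and J and highest in line C.

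The genes differed in how far they moved between conditions and between clones. Pou5f1 was the most even, with 1520 to 2160.5 TPM over the 30 libraries, a highest condition mean 1.25 times the lowest, and at most 1.18 times between the libraries of a condition. Dppa2 was the least even, with 29.7 to 126 TPM, 2.73 times between the highest and the lowest condition mean, and 1.77 times between the clones of line F. For Dppa2 the libraries of XX Rnf12+/- held 96.4 and 59.0 TPM, which bears on each comparison made against them. Those of XX wild type held 126 and 84.8 TPM, with the first library higher in both groups. The median ratio between libraries of 1 condition was 1.04 for Pou5f1 and Sox2, between 1.06 and 1.1 for the other 6 genes and 1.19 for Dppa2.

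The loss of 1 copy of Rnf12 went with no called change in any of the 9 genes. Pou5f1 held 1754 and 1612 TPM in XX wild type and 1893 and 1958 TPM in XX Rnf12+/-, a log2 difference of 0.20 ± 0.10 (SE). The edgeR quasi-likelihood test called 0 of 9 genes at an adjusted p of 0.05, with 0 at an unadjusted p under 0.05, where 3.14% of all genes tested were called. DESeq2 called 0 as well. The interval of the Dppa2 difference ran from -0.93 to 0.07 on the log2 scale. Dppa2 was lower in XX Rnf12+/- for either replicate number, and pairing by that number within this comparison was not tested. Deletion E, of the same library series, was called for 0 of 9 genes against XX Rnf12+/- by edgeR and by DESeq2, with 1 gene at an unadjusted p under 0.05, and 0.273% of all genes were called. That gene was Fgf4, with 213.7 and 231 TPM in XX Rnf12+/- and 183 and 189 TPM in deletion E.

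In the XO lines Sox2 was lower and Dppa4 and Lin28a were higher than in XX Rnf12+/- cells, in both lines, while Pou5f1 did not pass the test in either (in XMusOCast it passed with scaling factors of all genes, 0.24, adjusted p = 0.0442, and with only the libraries of the comparison, 0.21, adjusted p = 0.0475, edgeR). Sox2 held 749 and 738 TPM in XX Rnf12+/-, 314 and 347 TPM in XCastOMus and 359 and 409 TPM in XMusOCast. The groups do not overlap, and the log2 differences were -1.05 ± 0.08 (adjusted p = 1.64e-08, edgeR) and -0.80 ± 0.08 (adjusted p = 3.04e-07, edgeR). In bulk RNA, fewer cells that express a gene and less RNA of it per cell cannot be told apart. The 20 libraries of the second series, all XX cells read as paired reads, lay between them at 480.3 to 639 TPM.

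Dppa4 held 191 and 190.4 TPM in XX Rnf12+/-, 264 and 302 TPM in XCastOMus and 260.0 and 255 TPM in XMusOCast. All 4 XO libraries were above all other 26, whose highest was 250.4 TPM. The log2 differences were 0.69 ± 0.11 (adjusted p = 6.33e-05, edgeR) and 0.59 ± 0.11 (adjusted p = 0.000168, edgeR). Its partner gene Dppa2, which lies next to it on chromosome 16, held 101 and 106 TPM in XCastOMus and 85.2 and 90.8 TPM in XMusOCast, within the range of the parental libraries, and did not pass the test (0.53 ± 0.25 and 0.33 ± 0.25 on the log2 scale). Without the first XX Rnf12+/- library Dppa2 passed in both comparisons, at 0.93 (adjusted p = 0.0184, edgeR) and 0.74 (adjusted p = 0.0425, edgeR).

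Lin28a held 319 and 284 TPM in XX Rnf12+/-, 334 and 442 TPM in XCastOMus and 503 and 514 TPM in XMusOCast. The log2 difference was 0.48 ± 0.17 for XCastOMus (adjusted p = 0.0262, edgeR) and 0.91 ± 0.17 for XMusOCast (adjusted p = 0.000192, edgeR). The XCastOMus call was lost with XX wild type as the reference (0.31, adjusted p = 0.136, edgeR), whose 333 and 349 TPM hold the lower XCastOMus library between them, and with only the libraries of the comparison (0.47, adjusted p = 0.112, edgeR). It was also lost without the second XX Rnf12+/- library (0.40, adjusted p = 0.143, edgeR) and without the second XCastOMus library (0.27, adjusted p = 0.279, edgeR). Sall4, at 281 and 222 TPM in XX Rnf12+/- and 332 and 359.8 TPM in XMusOCast, rose by 0.61 ± 0.14 (adjusted p = 0.00166, edgeR), and in XCastOMus, at 249 and 331 TPM, differed by 0.32 ± 0.14, which did not pass (adjusted p = 0.0807, edgeR). That comparison passed without the first XX Rnf12+/- library (adjusted p = 0.0252, edgeR) and without the first XCastOMus library (adjusted p = 0.0178, edgeR).

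Utf1 is the gene for which the XO lines were called different from each other by edgeR. It held 1189 and 1157 TPM in XCastOMus, 1583 and 1582 TPM in XMusOCast and 1235 and 1242 TPM in XX Rnf12+/-. Against XX Rnf12+/- it rose by 0.51 ± 0.13 in XMusOCast (adjusted p = 0.0033, edgeR) and differed by 0.04 ± 0.13 in XCastOMus. The difference between the XO lines themselves was 0.47 ± 0.13 (adjusted p = 0.033, edgeR). These lines share library series and read type but differ in the X chromosome kept and in Rnf12, which cannot be told apart. Rlim held 71.2 and 77.8 TPM in XCastOMus and 3.53 TPM in XMusOCast. The Utf1 difference did not pass when any of the 4 XO libraries was left out, and it was then 0.45 to 0.49. Sox2 was 0.25 ± 0.08 higher in XMusOCast than in XCastOMus, which did not pass with edgeR (adjusted p = 0.0603) but passed with DESeq2 (adjusted p = 0.0223).

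In counts, 3 of the 9 genes were called in XCastOMus against 41.4% of all genes tested, 5 of 9 in XMusOCast against 53.5%, and 1 of 9 between the XO lines against 9.03%. These shares are near the background and are not read as a result about the 9 genes as a group. The number called in XCastOMus depended on the library left out, and no share over all genes is given for those fits. Both comparisons use the same XX Rnf12+/- libraries, and their values are therefore not independent. With XX wild type as the reference 4 and 7 genes were called, where 43.7% and 55.0% of all genes were. Pou5f1 then passed in XCastOMus (0.30, adjusted p = 0.0168, edgeR) and XMusOCast (0.41, adjusted p = 0.00135, edgeR), and so did Dppa5a (0.50, adjusted p = 0.00774, and 0.36, adjusted p = 0.0386, edgeR). The median log2 difference of the 9 genes was 0.29 and 0.33, beside -0.01 and -0.03 over all genes. Fgf4 (-0.17 ± 0.11 and -0.18 ± 0.11), Dppa5a (0.29 ± 0.14 and 0.14 ± 0.14) and Pou5f1 (0.10 ± 0.10 and 0.21 ± 0.10) did not pass in either XO line against XX Rnf12+/-.

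**Figure D2:**
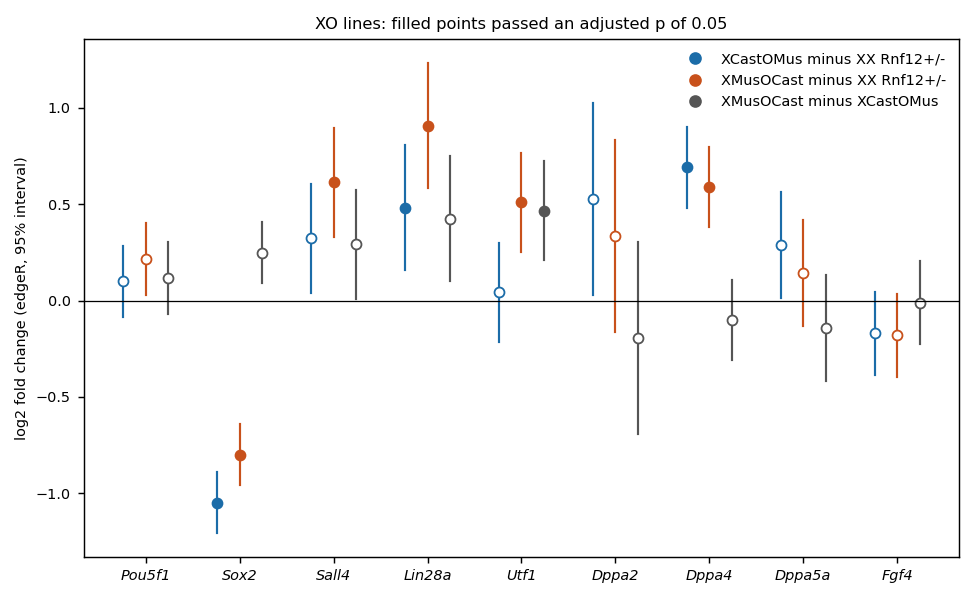
Log2 fold change with its 95% interval (edgeR) of each gene in XCastOMus and XMusOCast against XX Rnf12+/- and between the XO lines, filled where the adjusted p was under 0.05. Sox2 lies at -1.05 and -0.80 while Lin28a and Dppa4 lie above 0 in both lines, and among the differences between the XO lines only that of Utf1 is filled.

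Other genes of the pluripotency network moved in the XO libraries as well, mostly downwards, as measured on a list of 20 further stem cell identity genes. In XCastOMus 12 of the 20 were called, where 41.4% of all genes were. Of these 4 were higher and 8 lower, with a median over the 20 of -0.29 on the log2 scale. The largest differences were those of Tbx3 (-1.77 ± 0.26), Prdm14 (-1.47 ± 0.11) and Tcl1 (-1.12 ± 0.17), which support the naive state. In XMusOCast 17 of 20 were called, 3 higher and 14 lower, with a median of -0.75, led by the same 3 genes at -2.24 ± 0.26, -2.18 ± 0.11 and -1.69 ± 0.17. Between the XO lines 10 of 20 were called, where 9.03% of all genes were. All 10 were lower in XMusOCast, with Nr5a2 (-0.87 ± 0.20), Prdm14 (-0.71 ± 0.11) and Nanog (-0.62 ± 0.10) in front. Sox2 thus differed in the direction of most of these genes, whereas Lin28a and Dppa4 were called in the opposite direction in both XO lines. Sall4 and Utf1 were called in that opposite direction in XMusOCast only.

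Markers of the primed state, which follows the naive state in development, were measured in the same libraries. Of 5 markers 2 were called higher in XCastOMus and 4 in XMusOCast, where 41.4% and 53.5% of all genes were called. The summed level of 5 such markers was 228 to 229 TPM in XX Rnf12+/-, 461 to 610.0 TPM in XCastOMus and 835 to 849 TPM in XMusOCast, and each marker had a mean over 5 TPM in all of these groups. Dnmt3b, a de novo DNA methyltransferase, differed by 1.78 ± 0.28 and 2.43 ± 0.29 (log2), and Lef1 by 1.34 ± 0.34 and 1.70 ± 0.35. The summed level of 10 feeder fibroblast markers was 102 to 344 TPM in XX Rnf12+/-, 120.0 to 226 TPM in XCastOMus and 102 to 162 TPM in XMusOCast, of which 5 or 6 markers had a mean over 5 TPM and at most 2 were under 1 TPM. Lists for primitive endoderm, mesoderm, neuroectoderm and trophoblast summed to at most 108 TPM in any library. Of these, T was called higher in XCastOMus (1.53), and T (1.17), Eomes (1.0) and Nes (1.04) were called higher and Lama1 (-0.86) and Tfap2c (-0.71) lower in XMusOCast. Their part in the differences of the 9 genes was not tested.

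The pathways in which single members act were followed in the same comparisons. Of the 18 genes of Fgf signalling that passed the filter (of 21), 7 were called in XCastOMus and 8 in XMusOCast, 5 higher in each, with Etv4, an ERK-responsive transcription factor, at 0.93 ± 0.24 and 1.52 ± 0.24 and Egr1, an immediate early gene, at -0.86 ± 0.18 and -1.51 ± 0.18. Of the 12 genes around Lin28 and let-7, 7 were called in each line, 5 higher and 2 lower. Drosha, the nuclear enzyme of microRNA maturation, differed by 0.70 ± 0.09 and 0.86 ± 0.09, and Lin28b, the paralogue of Lin28a, by 0.55 ± 0.15 and 0.51 ± 0.15. Among the genes called lower were Igf2bp3 in XCastOMus (-0.74) and Igf2bp2 in XMusOCast (-0.82). Of the 11 subunits of NuRD, the complex that Sall4 recruits, 4 and 5 were called, all higher, among them Chd4 (0.61 and 0.80) and Hdac1 (0.61 and 0.79). All these shares are to be read beside the 41.4% and 53.5% of all genes.

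On average the 12 deletion lines of the second series had less Sox2, Dppa2 and Sall4 and more Utf1 and Dppa5a than XX Rnf12+/- cells. Sox2 ranged from 480.3 to 639 TPM (median 569.7) in the 20 libraries, below the 697 to 789 TPM of the first series, without overlap. The mean of the 12 lines differed from XX Rnf12+/- by -0.41 ± 0.06 for Sox2 (adjusted p = 4.68e-05, edgeR), by -0.59 ± 0.18 for Dppa2 (adjusted p = 0.018, edgeR), by -0.31 ± 0.10 for Sall4 (adjusted p = 0.0259, edgeR), by 0.28 ± 0.10 for Utf1 (adjusted p = 0.0357, edgeR) and by 0.29 ± 0.11 for Dppa5a (adjusted p = 0.0441, edgeR). That is 5 of 9 genes, 2 higher and 3 lower, where 35.7% of all genes were called. With scaling factors of all genes or by the median of ratios 1 was higher and 3 were lower. Deletion E, of the first series, had 789 and 730.0 TPM of Sox2, a difference of 0.01 ± 0.08 from XX Rnf12+/-. It is 1 line with another deleted region. The part of the library series in the Sox2 difference of the 12 lines was not tested.

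With XX wild type as the reference Sox2, Sall4, Dppa2 and Dppa5a were called, where 39.3% of all genes were, and Utf1 was not (0.25, adjusted p = 0.0582, edgeR). Against XX Rnf12+/-, the calls other than that of Sox2 changed when single libraries were left out. Without the first XX Rnf12+/- library only Sox2 was called, and Dppa2 (-0.19, adjusted p = 0.675, edgeR), Sall4 (-0.13, adjusted p = 0.611, edgeR), Utf1 (0.28, adjusted p = 0.228, edgeR) and Dppa5a (0.19, adjusted p = 0.455, edgeR) were not. The Utf1 call was also lost without the second XX Rnf12+/- library (adjusted p = 0.129, edgeR). Utf1 and Dppa5a were both lost, leaving 3 genes, without the library of deletion A, B or AB, and Dppa5a alone was lost without 8 further libraries, of lines C, D, H, J and K, at adjusted p from 0.0505 to 0.0567 (edgeR). In the same comparison 7 of the 20 other stem cell identity genes were called, all lower, with Tbx3 at -0.90 ± 0.17, Zfp281 at -0.64 ± 0.13 and Klf5 at -0.63 ± 0.10. Of the Fgf signalling genes 5 of 18 were called, all lower, among them the ERK feedback genes Dusp6 (-1.0 ± 0.17), Spry4 (-0.85 ± 0.19) and Spry2 (-0.82 ± 0.14). The reference bears on these values. In XX Rnf12+/- the same genes were 0.27 ± 0.24, 0.85 ± 0.27 and 0.31 ± 0.20 above XX wild type, without a call. Of the 5 feeder fibroblast markers that passed the filter (of 10), 3 were called lower in the 12 lines (Col5a2 -1.81, Col1a1 -1.31 and Col1a2 -1.23), and the summed level of the 10 was 70.4 to 268 TPM in the second series and 99.3 to 357 TPM in the first. Its part in these differences was not tested.

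Within the second series the lines were compared with each other, which avoids the step between library series. The test of any difference among the 12 lines called 7 of the 9 genes, with 57.1% of all genes called, and it did not call Sall4 (adjusted p = 0.0869, edgeR) or Dppa2 (adjusted p = 0.101, edgeR). Both passed with DESeq2 and without the second clone of line F, and Sall4 without its first clone too. The call of Sox2 was lost without either clone of line C or the second clone of line D, at adjusted p of 0.0517 to 0.0683 (edgeR). When each line was set against the mean of the other 11, 19 of 108 pairs of a gene and a line were called, 7 higher and 12 lower, or 17.6% beside 10.5% of the pairs of all genes. The 12 comparisons share libraries, each line being part of the reference of the other 11. The calls fell in 7 lines, of which C, I-TEL and J held 15.

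Line C moved the largest number of these genes, and in both directions. Dppa5a, at 8290.4 and 9132 TPM, was 0.58 ± 0.10 higher (adjusted p = 0.000165, edgeR) and Dppa4, at 143 and 134 TPM, was 0.58 ± 0.09 lower (adjusted p = 4.0e-05, edgeR), though single libraries of lines A, B and I reached these levels. Utf1, at 1187 and 1054 TPM, was 0.49 ± 0.10 lower (adjusted p = 0.000969, edgeR). Fgf4, at 269 and 302 TPM, was 0.33 ± 0.08 higher (adjusted p = 0.00299, edgeR). Sall4 (0.33 ± 0.11), Lin28a (-0.36 ± 0.13), Pou5f1 (-0.20 ± 0.07) and Sox2 (0.16 ± 0.06) were called as well, 8 of 9 in all, but 41.6% of all genes were called in this line.

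The calls of Dppa5a, Dppa4 and Utf1 in line C were kept when any library was left out. Fgf4 was lost without the second clone of line C (0.24, adjusted p = 0.128, edgeR) and Pou5f1 without the first (-0.08, adjusted p = 0.575, edgeR). Sall4 was lost without either clone (adjusted p = 0.141 and 0.0918, edgeR), and so were Sox2 (adjusted p = 0.206 and 0.136, edgeR) and Lin28a (adjusted p = 0.114 and 0.219, edgeR). Sox2 was further lost without the library of line C-G (adjusted p = 0.0521, edgeR) and Lin28a without that of line AB (adjusted p = 0.0576, edgeR). Of the 5 primed state markers 3 were called lower in line C (Lef1 -1.0, Dnmt3b -0.93 and Pou3f1 -0.59), with summed levels of 141 and 219 TPM, where the second series spanned 132 to 583 TPM. Of the 20 other stem cell identity genes 9 were called, 4 higher and 5 lower. The part of the primed state markers in these differences was not tested.

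Lines I-TEL and J, which derive from the other founder line, both had less Dppa5a, Utf1 and Fgf4 than the mean of the other lines of the second series. Dppa5a held 3897 and 3238 TPM in I-TEL and 3648 and 3844 TPM in J, against 4526 to 9132 TPM in the 16 libraries of the other 10 lines, without overlap. It was 0.88 ± 0.11 lower in I-TEL (adjusted p = 4.1e-05, edgeR) and 0.76 ± 0.11 lower in J (adjusted p = 0.00012, edgeR). Utf1, at 1308 and 1178 TPM in I-TEL and 1130.0 and 1210.0 TPM in J, was 0.38 ± 0.10 and 0.43 ± 0.10 lower (adjusted p = 0.0147 and 0.00582, edgeR), within the 1054 to 2241 TPM of the other lines. Fgf4, at 207 and 197 TPM in I-TEL and 185 and 196 TPM in J, was 0.27 ± 0.09 and 0.32 ± 0.09 lower (adjusted p = 0.0387 and 0.013, edgeR), and its range also overlapped with that of the other lines (185 to 302 TPM). Against XX Rnf12+/- neither Utf1 (-0.07 and -0.12, adjusted p = 0.748 and 0.591, edgeR) nor Fgf4 (-0.21 and -0.26, adjusted p = 0.178 and 0.114, edgeR) was called in I-TEL and J, while Dppa5a was (-0.52 and -0.41, adjusted p = 0.0125 and 0.0486, edgeR).

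Region J lies within region I-TEL, and both lines share the founder, so that founder and deletion cannot be told apart. The regions of lines I and K also lie within I-TEL, and both come from the founder of the other lines. Dppa5a held 4526 and 6838 TPM in line I, the former the lowest of the other 10 lines, and 5909 and 5682 TPM in line K. In I-TEL, Pou5f1 was 0.24 ± 0.07 lower as well (adjusted p = 0.0294, edgeR), which makes 4 of 9 genes where 16.9% of all genes were called, and in J it was 3 of 9 where 21.2% were called. Without the second clone of I-TEL the calls of Utf1 (adjusted p = 0.292, edgeR) and Pou5f1 (adjusted p = 0.458, edgeR) were lost there. Without either clone of J its calls of Utf1 (adjusted p = 0.131 and 0.0567, edgeR) and Fgf4 (adjusted p = 0.194 and 0.0899, edgeR) were lost. The Fgf4 call in I-TEL was lost without either of its clones, without the library of line A or B and without the second clone of J or K, at adjusted p from 0.0503 to 0.384 (edgeR). The lower Dppa5a was called in both lines whichever library was left out. Of the Fgf signalling genes 3 of 18 were called in I-TEL, 2 higher and 1 lower, and 4 in J, 3 higher and 1 lower. Among them were Egr1, higher at 1.1 and 0.77, and Etv5, lower at -0.65 and -0.44. The summed feeder markers were 144 to 251 TPM in I-TEL and 194 to 268 TPM in J, among the highest of the second series, and their part was not tested.

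The other lines had few calls. Dppa5a was 0.59 ± 0.14 higher in line A, at 8622 TPM in its only library (adjusted p = 0.0168, edgeR), 1 of 9 genes where 7.03% of all were called. Line B, whose region does not overlap with that of A, had 8355 TPM of Dppa5a and a difference of 0.50 ± 0.14 that did not pass (adjusted p = 0.0967, edgeR) but did with DESeq2. Line AB, which lacks both regions and more, had 6899 TPM (0.21 ± 0.14) and was called by edgeR for Utf1, at 2241 TPM and 0.61 ± 0.13 higher (adjusted p = 0.0157, edgeR), 1 of 9 genes where 2.69% were called. DESeq2 called Lin28a there as well (0.56, adjusted p = 0.0341). Of the 5 primed state markers 3 were called higher in AB (Otx2 1.28, Pou3f1 1.1 and Dnmt3b 1.03), whose summed level of 583 TPM was the highest of the second series, and 4 in line D (453 to 513 TPM), and their part was not tested. Dppa4 was 0.38 ± 0.08 higher in line D, at 250.4 and 241 TPM (adjusted p = 0.00513, edgeR), where 14.5% of genes were called, and 0.39 ± 0.08 lower in line I, at 130 and 184 TPM (adjusted p = 0.00832, edgeR), where 9.71% were called. Both calls were lost without the first clone of the line, with 0.32 (adjusted p = 0.139, edgeR) in D and -0.20 (adjusted p = 0.416, edgeR) in I.

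No gene of the 9 was called by edgeR in lines B, C-G, F, H and K, where 0.342%, 0.581%, 5.43%, 4.96% and 1.0% of all genes were called. At an unadjusted p under 0.05 there were 2, 0, 2, 0 and 2 genes, and DESeq2 called 1 (Dppa5a), 0, 0, 0 and 0. Leaving out a library also added calls. Without either clone of line F, Lin28a was called in lines AB (adjusted p = 0.00823 and 0.0179, edgeR) and J (adjusted p = 0.0299 and 0.0102, edgeR) and Utf1 in line D (adjusted p = 0.0141 and 0.0468, edgeR). Lin28a in I-TEL was called without the second clone of F (adjusted p = 0.0178, edgeR), and Dppa2 in AB without the first (adjusted p = 0.0454, edgeR). Utf1 in line D was called without the library of line AB too (adjusted p = 0.0461, edgeR), and Pou5f1 in line D without that of line B, the second clone of C or the first of F (adjusted p = 0.0356 to 0.0479, edgeR). Dppa5a in line B was called without the library of line A or the second clone of I (adjusted p = 0.0483 and 0.0382, edgeR). Without that clone of I, Dppa4 in AB (adjusted p = 0.0438, edgeR) and Dppa5a in line I (adjusted p = 0.0466, edgeR) were called as well. In lines with 1 clone (A, B, AB and C-G) the library was assumed to vary like those of the other lines.

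**Figure D3:**
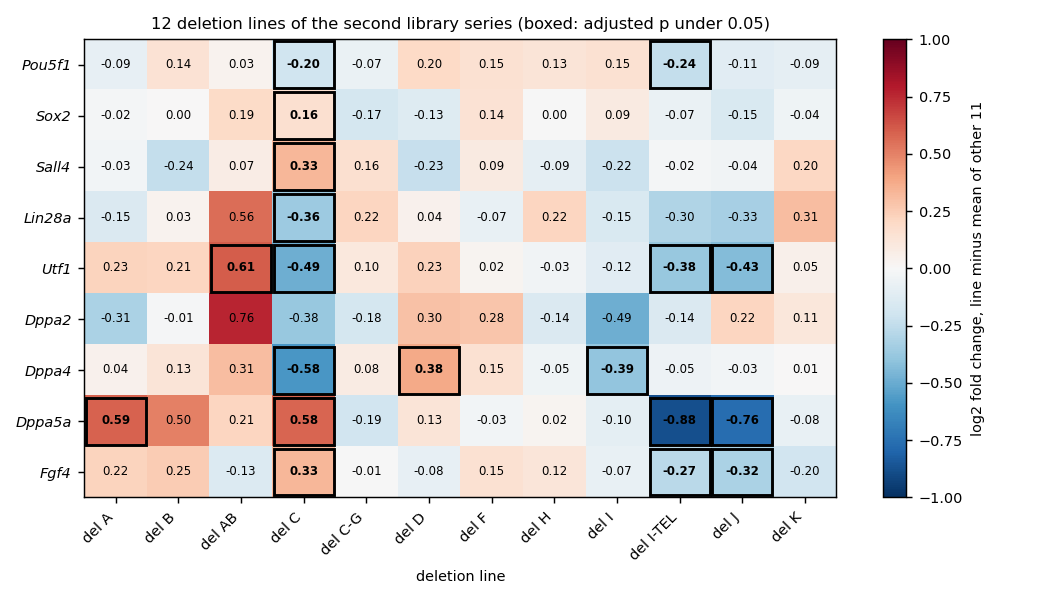
Log2 difference (edgeR) between each of the 12 deletion lines of the second series and the mean of the other 11, for each of the 9 genes, with a box where the adjusted p was under 0.05. Line C has boxes for 8 genes in both directions, and the Dppa5a row runs from -0.88 in I-TEL to 0.59 in line A.

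Several of the genes varied together from line to line. Over the 12 line means (log2 of TPM + 1) the highest correlations were those of Dppa5a with Fgf4 and of Lin28a with Utf1, both at a Pearson's r of 0.797, of Dppa2 with Dppa4 (0.751) and of Utf1 with Dppa4 (0.71). The lowest was that of Pou5f1 with Sall4 (-0.719). Pou5f1 with Sox2 had an r of 0.04, and Utf1 with Fgf4 had an r of 0.035. These 12 means share library series and depth, and include lines of 1 founder and overlapping regions. Clones of the same line also parted in several genes at once. In line F the first clone was above the second by a log2 of 0.81 for Dppa2, 0.67 for Lin28a, 0.53 for Utf1 and 0.43 for Sall4, and in line I it was below by 0.66 for Dppa2, 0.60 for Dppa5a, 0.50 for Dppa4, 0.48 for Fgf4 and 0.35 for Utf1. In line H no gene differed by more than 0.25 between clones.

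The genes most like 8 of the members over the same 12 line means were Psmb5 for Pou5f1 (r = 0.928), Gm28071 for Sall4 (0.901), Slc9a3r1 for Lin28a (0.946), Sin3a for Utf1 (0.961), AW209491 for Dppa2 (0.894), Fkbp4 for Dppa4 (0.968), Gm5229 for Dppa5a (0.982) and Cotl1 for Fgf4 (0.952). Each was the highest correlation among all genes tested and is a description. The next were Prr23a3, Cnot2, Gid4, Grb7, Prpsap1, Thbs3, Morc4 and Tspan13, at r of 0.871 to 0.978. Morc4 is X-linked and has 1 copy left in I-TEL and J, with 7.91 to 9.73 TPM there and 10.4 to 29.8 TPM in the others.

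Gm5229 is a pseudogene that resembles Dppa5a itself. Its transcript matches that of Dppa5a over 358 bases at 94.4% identity, so that short reads can be given to either. Annotated pseudogenes that match a member over at least 50 bases at 90% identity numbered 8 for Dppa5a, 6 for Dppa2 and 2 for Dppa4, and none was found for the other 6 genes. Their summed counts, as few as 18 for Dppa2 in 1 library, came to 3.33 to 4.86% of those of Dppa5a in the first series, 2.61 to 3.52% in the second and 0.796 to 1.08% in the XO series, without overlap between the XO and the other libraries. For Dppa2 they were 5.99 to 8.42%, 5.41 to 17.1% and 9.4 to 12%, and for Dppa4 6.69 to 8.49%, 7.1 to 12% and 10.9 to 14.1%. Read type and series move with these shares. With the counts of the pseudogenes added to their gene no call of the 8 comparisons changed, and the Dppa4 differences in the XO lines were 0.77 and 0.66. The coding gene Pigp also matches Dppa5a, over 417 bases at 95.9% identity, and its counts were 7.62 to 13.4% of those of Dppa5a in the paired-read series and 2.37 to 3.23% in the XO series. Dppa5c, a neighbouring pseudogene of the same family, reached 106 TPM in 1 XX wild type library, on 226 counts, with a median of 0.952 TPM over the 30 libraries.

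**Figure D4:**
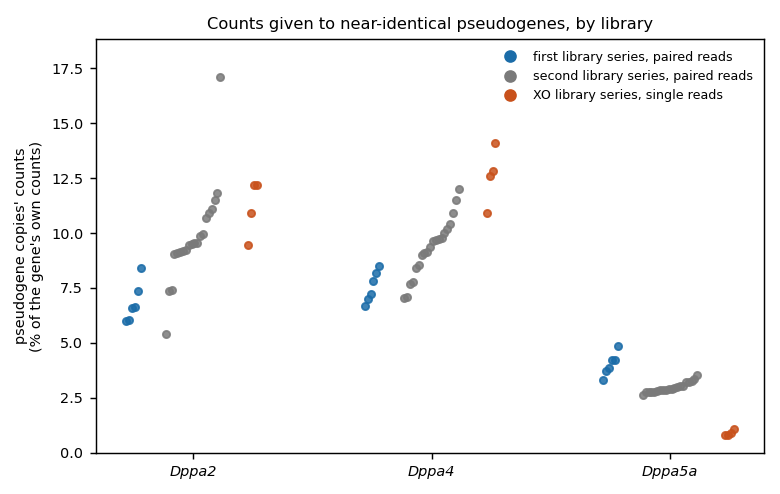
Summed counts of near-identical pseudogenes as a percentage of the counts of Dppa2, Dppa4 and Dppa5a, 1 point per library, sorted by value within each library series. The XO libraries are highest for Dppa4 apart from overlap with the second series, and lowest for Dppa5a.

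Both parental genomes expressed each gene that could be resolved. Reads over a SNP were split by the authors into Mus and Cast counts, and the Mus share over 6189 autosomal genes had a median of 51.4 to 52.2% in the 3 series. Per library, Sall4 (40.3 to 49.4%) and Lin28a (40.1 to 49.8%) leaned to Cast, Sox2 (52.4 to 63.5%) leaned to Mus, and Dppa2 leaned most to Mus (65.2 to 79.3%). Utf1 lay at 44.5 to 56.6%, Fgf4 at 48.2 to 64.0% and Dppa4 at 45.5 to 64.4%. The fewest allelic counts behind any of these shares were 78, for Dppa2 in the second series. Pou5f1 could not be resolved with paired reads, which gave 0 to 9 allelic counts per library, against 81 to 149 with single reads and a Mus share of 35 to 49% there.

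The allelic share of Dppa5a was lower in the XO libraries than in all others. Its Mus share was 65.9 to 68.7% in the first series, 66.3 to 73.9% in the second and 54.8 to 55.8% in the XO series, on 995 to 5024 allelic counts per library. Within the second series single libraries differed too, as in line B (68.3%, Wilson 95% interval 66.7 to 69.8%) and the second clone of line C (73.9%, 72.3 to 75.4%). Dppa4 was shifted the other way in the XO series, with 56.8 to 64.4% against 48.8 to 58.7% in the first and 45.5 to 60.4% in the second. For both genes the single reads, the share of pseudogene counts and the loss of an X chromosome change together and cannot be told apart. The Dppa4 ranges overlap with those of the other series, as do those of the other 6 resolved genes. The Wilson 95% intervals of Dppa5a ran from 53.4 to 57.2% over the 4 XO libraries, and such intervals cover counting error only.

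**Figure D5:**
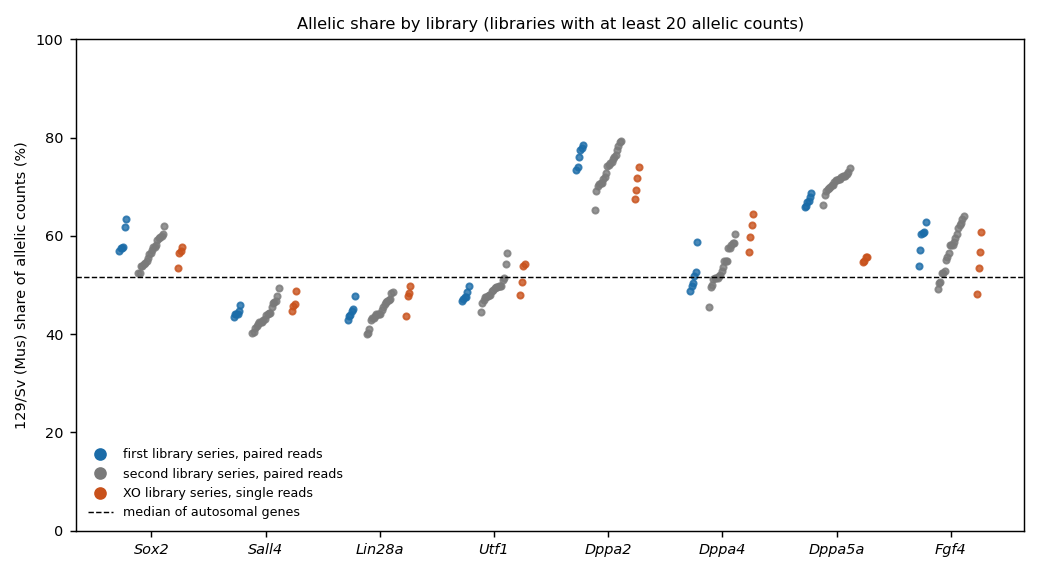
Percentage of allelic counts from the Mus (129/Sv) genome for 8 genes, 1 point per library with at least 20 allelic counts, sorted by value within each library series, with the mean of the 3 series' medians over autosomal genes as a dashed line. Dppa2 lies at 65.2% or more everywhere, and the XO libraries of Dppa5a (54.8 to 55.8%) lie apart from all others (65.9% or more).

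The neighbours of a gene on its chromosome give a further background. The median log2 difference of all tested genes on the chromosome of a member lay within ±0.154 in every comparison. Around Sox2 (chromosome 3, 34650405 to 34652461, GRCm38) the nearest 20 tested genes had a median of -0.15 in XCastOMus and -0.36 in XMusOCast. Around Dppa4 (chromosome 16, 48283733 to 48294237) it was -0.38 and -0.60, opposite to Dppa4 itself. Around Lin28a (chromosome 4, 134003330 to 134018841) it was 0.25 and 0.36, and around Pou5f1 (chromosome 17, 35506018 to 35510772) 0.36 and 0.53, above the difference of Pou5f1. In line C the 20 neighbours of Fgf4 (chromosome 7, 144847367 to 144865243) had a median of -0.28 while Fgf4 was higher. Sox2ot, a long transcript that overlaps Sox2 on the same strand, stayed at 0.329 to 1.24 TPM in all libraries, so that its reads add little to those of Sox2.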

How the data were processed

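RNA-seq counts per gene were deposited by the authors for 30 libraries, as whole-number counts of all reads and of the reads assigned to the Mus and to the Cast allele. Per the labels and the study's methods, reads were trimmed with Trim Galore 0.6.7, aligned with HISAT2 2.2.1 to mm10 with strain variants masked, split by allele and handled with SAMtools 1.10. The labels name HTSeq 0.12.4 for counting and the methods featureCounts. Reads of near-identical copies may therefore have been left out or shared differently from what is known here.

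Of 55421 gene identifiers 55240 were matched to GENCODE M21 and 181 were not (at most 0.004% of counts). TPM were computed from the counts and exon lengths. Allele-resolved counts were 12.2 to 12.7% of the total in the paired-read series and 21.9 to 22.0% in the XO series. In 354 pairs of gene and library the allelic counts exceeded those of all reads.

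Genes with a mean over 5 TPM in XX Rnf12+/- were fitted together (11703, of which 11204 autosomal) with the quasi-likelihood test of edgeR 4.0.16 in R 4.3.3, 1 term per condition, TMM factors of autosomal genes and an offset for the copy number of X-linked genes, and p-values were adjusted by Benjamini-Hochberg at 0.05. Each of the 12 lines of the second series was set against the mean of the other 11. The fit was tested on simulated counts. DESeq2 1.42.0, other scalings, filters, references, replicate blocks and leaving out each library were alternatives, and the addition of pseudogene counts was chosen after seeing the data. Near copies came from BLAST 2.17.0 against GENCODE transcripts, with at least 50 bases at 90% identity. Correlations used log2(TPM + 1) of line means.

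The 9 genes, the gene lists and the markers were chosen with earlier results of these data known. Named were all 9 genes, the 2 genes most correlated with each (those of Sox2 are not reported here), and up to 3 called genes of largest change per list. No libraries were duplicates of each other. No p-value was adjusted over the 9 genes alone.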

Additional observations from a re-analysis of the deposited data

Results flagged for a closer look

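The level of Utf1, which encodes a chromatin-bound protein of pluripotent cells, differed between the XO lines by the test of the difference itself. The difference was 0.47 ± 0.13 on the log2 scale in XMusOCast against XCastOMus (adjusted p = 0.033, edgeR). The XO lines differ both in Rnf12 and in the X chromosome kept, which cannot be told apart. Utf1 was higher in 2 of 2 XMusOCast libraries than in both XCastOMus libraries. The call was lost when any of the 4 libraries was left out. It was also lost with only the libraries of the comparison (0.47, adjusted p = 0.0725, edgeR). Utf1 was 1 of 9 genes called, where 9.03% of all genes were called, a share near the background.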

How the results depend on the processing

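The counts of called genes were 0 of 9 under every alternative run for XX Rnf12+/- against XX wild type and for deletion E. For XCastOMus they were 2 to 5 when a library was left out and 5 with every gene that had a count, against 3. For XMusOCast against XCastOMus, 2 genes were called with DESeq2, with TMM factors of all genes, with median-of-ratios size factors and with every gene that had a count, and 0 when only the libraries of the comparison were fitted, against 1. Leaving out a library gave 0 to 0. For the 12 lines against XX Rnf12+/-, 3 genes were called with the filter of 10 counts and with only the libraries of the comparison, and 1 to 5 when a library was left out, against 5. With XX Rnf12+/- as the reference for each line 30 pairs of a gene and a line were called, against 19. In that setting 13.6% to 39.0% of all genes were called per line, beside 0.342% to 41.6% against the mean of the other lines. The sign was reversed for Sox2 in lines B (-0.41), C (-0.26), F (-0.28) and I (-0.33) and for Sall4 in line C (-0.01). The step between library series is part of that reference by construction.

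Replicate numbers were shared between groups, but no label says that they pair the samples. Over 78 pairs of groups the correlation of same-numbered deviations, taken over the genes tested, was -0.433 to 0.786 (median 0.00856), with 29 over 0.1. The highest was that of XX wild type with XX Rnf12+/-, whose libraries thus moved together by replicate number. With the replicate number as a block the 8 counts of calls were 0, 0, 3, 5, 1, 5, 7 and 19, and no call of a member changed. That block was 1 term over all libraries, and a block for these XX groups alone was not fitted.

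Over all genes tested, the counts of called genes ranged more widely over the alternatives, from 1 to 946 for XX Rnf12+/- against XX wild type, 0 to 596 for deletion E, 1458 to 6232 for XCastOMus, 5170 to 8156 for XMusOCast, 32 to 1556 between the XO lines, 3952 to 5344 for the 12 lines, 6379 to 9911 among them and 13984 to 30796 for pairs of a gene and a line. The shallower second series limits Dppa2 most, with counts down to 220.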

Other observations

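Paralogues of the 9 genes were measured as well, 11 of 14 above the filter. Sall3, a paralogue of Sall4, was lower in XCastOMus (-2.01), in XMusOCast (-2.93) and in the 12 deletion lines (-2.09) than in XX Rnf12+/-, all against the same 2 libraries. Pou3f1, a POU factor of the primed state, was higher in XMusOCast (1.17). In the 12 lines Sox15 was higher (0.75) and the X-linked Sox3 was lower (-0.73) after the offset for copy number. In XX Rnf12+/- Sall3 was 1.19 ± 0.53 and Sox3 1.04 ± 0.30 above XX wild type, without a call, which bears on these differences. Sox15 differed by -0.05 ± 0.26 there.

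Of 16 genes of the two-cell-like state, which Dppa2 and Dppa4 are known to activate, 0 passed the filter on low values, so none was tested. Klf4 (1.1) and Fbxo15 (-0.85) were the 2 of 20 other stem cell identity genes called between XX Rnf12+/- and XX wild type, where none of the 9 genes was called.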
